A study of Mus musculus with 16 samples.

Results

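The genes described are 10 transcriptional regulators of cardiac fuel use: the peroxisome proliferator-activated receptors Ppara, Ppard and Pparg, the retinoid X receptors Rxra and Rxrg, the estrogen-related receptors Esrra and Esrrg, the coactivators Ppargc1a (PGC-1α) and Ppargc1b (PGC-1β), and the corepressor Nrip1 (RIP140). They were found as every array probe whose RefSeq accession belongs to one of these genes, which gave 15 probes for 10 of the 22911 genes with a symbol on the array. All 15 probes passed the filter on dim probes, which asked for a signal well above background in every heart of 1 group or more, and the 10 genes were tested among 13725.

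PPARs bind DNA together with an RXR partner and respond to fatty acids, and their targets take up, activate and oxidise fatty acids. ERRs bind DNA as monomers or dimers at an extended half-site and switch on genes of the respiratory chain, the citric acid cycle and fatty acid oxidation, while PGC-1 coactivators dock on both receptor families and raise their output. The adult heart draws most of its energy from fatty acids through these factors, and the kinase AKT, which carries the insulin signal in cardiomyocytes, is known to phosphorylate PGC-1α.

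RNA came from the heart apex of 16 male C57Bl/6 mice, 4 in each of 4 groups, hybridised singly to 1-colour Agilent arrays. All mice, the controls among them, were heterozygous for MHC-mercremer, a tamoxifen-activated Cre recombinase driven by the αMHC promoter and hence by cardiomyocytes, so other heart cells keep their Akt genes. The AKT1 KO group was homozygous for AKT1 flox/flox (exons 6 and 7 flanked), the AKT2 KO group for AKT2 flox/flox (exons 5 and 6 flanked), and the AKT1+AKT2 DKO group for both, whereas controls carried no floxed allele. A floxed locus and its deletion therefore cannot be told apart here, and the 3 comparisons with control share the same 4 control hearts. Every mouse received 4-OH-tamoxifen at 3 months of age, 500 µg per day in 5 daily injections, and its heart was collected 21 days after induction began or ended, which the labels do not settle. The titles also call the hearts untreated, and no other treatment is named.

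A level below is the log2 spot signal minus the log2 of that array's 75th percentile, and a difference of 1 in it is a 2-fold difference in signal. Between 43.11 and 54% of probes were well above background on an array, and the 75th percentile lay between 492.1 and 809.4 intensity units. The brightest Akt2 probe read 4.83 to 4.98 in controls, 2.43 to 2.64 in AKT2 KO and 2.82 to 3.04 in DKO hearts. The brightest Akt1 probe read 5.09 to 5.17 in controls and 4.86 to 5.43 in AKT1 KO hearts, and whether it lies in the floxed exons is not known here, so it checks no label. DKO replicate 3 lay at 78.6 on the first principal component and the remaining DKO arrays at 42.5 to 47.8, and the values of regulators without it are given beside the results it touches.

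The promoter windows of the regulators were read for the extended half-site AAGGTCA, the letters that ERRs are known to bind and that also occur within PPAR sites. RefSeq windows of build GRCm38.p6, from 250 bases before to 50 after a gene's start, were found for 9 of the 10 regulators, and the motif, searched on both strands, stood in a window of 2 of them, Rxrg and Rxra. Over all genes with a window 5.38% held it, and over all 32851 windows 4.72%. In the pathway lists described further on, 1 of 27 PPAR target genes with a window held it (Acadm) and 3 of 34 ERR and PGC-1 target genes (Perm1 among them). The stretches before the start are shown for Rxrg and Rxra as the only regulators with a match, and for Acadm and Perm1 as examples from the target lists. Each is given 5′ to 3′ on the gene's strand, with the motif, or TGACCTT where it lies on the opposite strand, in capitals; a match describes these letters only. The Rxrg stretch is chr1:167618131-167618227 (plus strand), that of Rxra chr2:27709198-27709291 (plus strand), that of Acadm chr3:153944841-153944893 (minus strand) and that of Perm1 chr4:156215680-156215776 (plus strand).
Rxrg: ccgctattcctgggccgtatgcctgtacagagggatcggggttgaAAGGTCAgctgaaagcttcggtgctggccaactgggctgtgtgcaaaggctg
Rxra: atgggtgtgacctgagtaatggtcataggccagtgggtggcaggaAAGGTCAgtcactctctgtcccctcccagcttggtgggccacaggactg
Acadm: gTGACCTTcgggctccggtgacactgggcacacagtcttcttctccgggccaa
Perm1: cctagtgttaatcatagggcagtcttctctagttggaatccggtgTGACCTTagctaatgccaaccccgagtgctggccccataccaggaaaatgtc
The match begins 89 bases before the window's start site in Rxrg, 49 in Rxra, 249 in Acadm and 202 in Perm1. Rxrg and Rxra each have 2 windows, of which 1 holds the motif, and in both genes it belongs to an alternative start inside the gene.

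In DKO hearts 7 of the 10 regulators were lower than in controls and none was higher: Rxrg, Ppargc1b, Esrrg, Esrra, Ppara, Ppard and Rxra passed an adjusted p of 0.05 in limma. Pparg, Ppargc1a and Nrip1 did not pass. When arrays were scaled to cardiomyocyte markers (below), only Rxrg stayed called lower. On that scale Ppargc1b, Esrrg and Esrra lost their calls, and Ppara, Ppard and Rxra turned to higher, of which Rxra was called. Slide 2 alone called 2 regulators lower. Of all 13725 genes 45.6% were called in this comparison, 21.2% of them all as lower, and the regulators' median change was −0.45 beside 0.02 for all genes. Neither single knockout changed a regulator by this test: 0 of 10 were called in AKT1 KO, where 0.794% of all genes were, and 0 of 10 in AKT2 KO, where 0.131% were. At an unadjusted p under 0.05 each single knockout had 1 regulator, Ppara in both. Of all 13725 genes, 1017 in AKT1 KO and 443 in AKT2 KO had such a p.

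**Figure D1:**
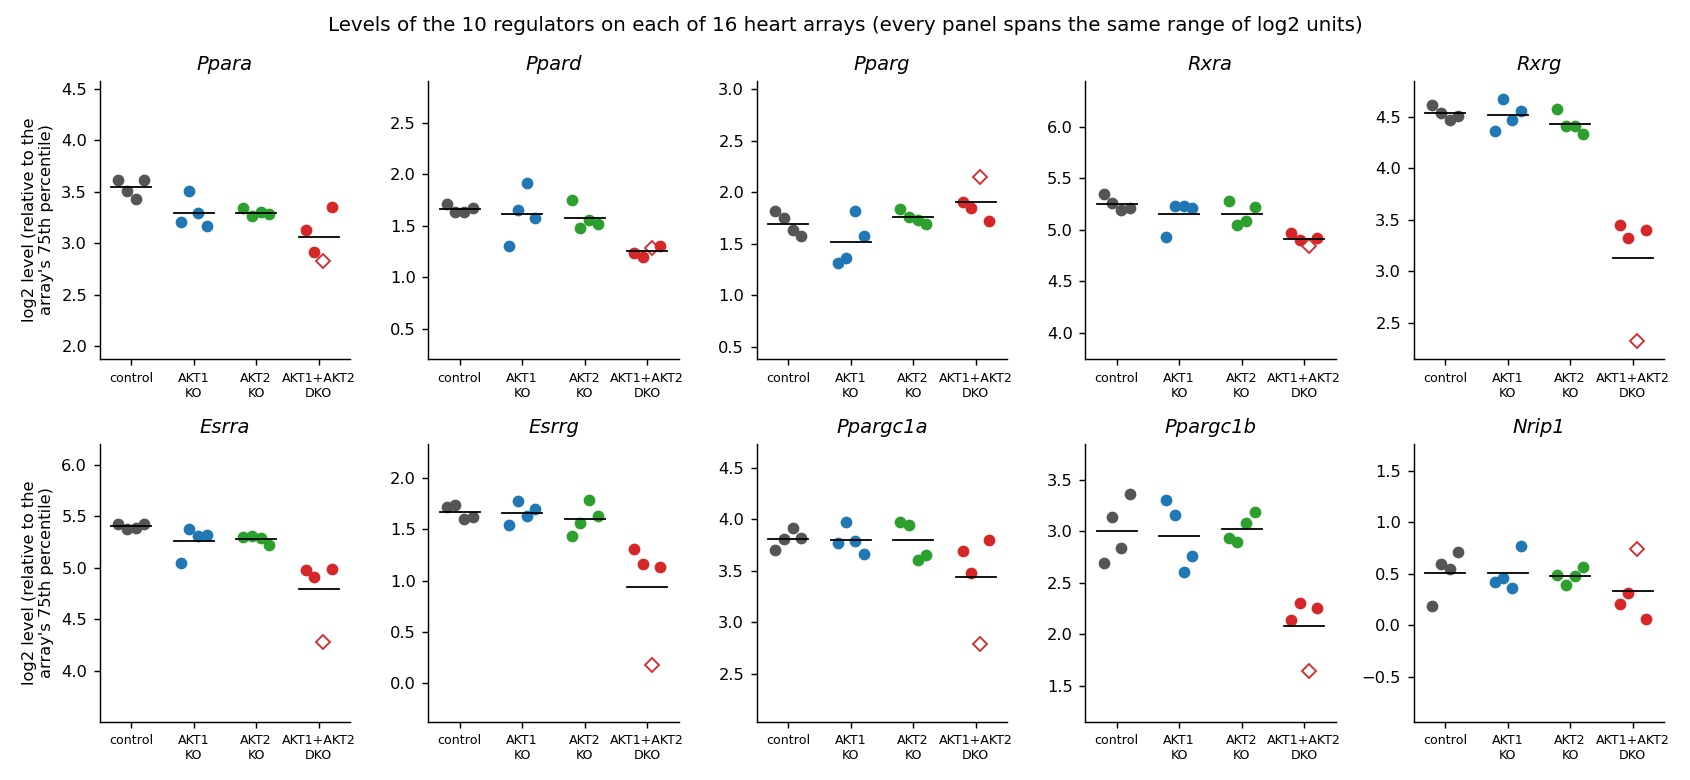
Each panel plots 1 regulator's log2 level, relative to the array's 75th percentile, on every array of the 4 groups, with a bar at the group mean; the open diamond is DKO replicate 3. Rxrg falls from between 4.47 and 4.62 in controls to between 2.32 and 3.45 in DKO hearts, while both single knockouts overlap the controls in the Rxrg panel.

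**Figure D2:**
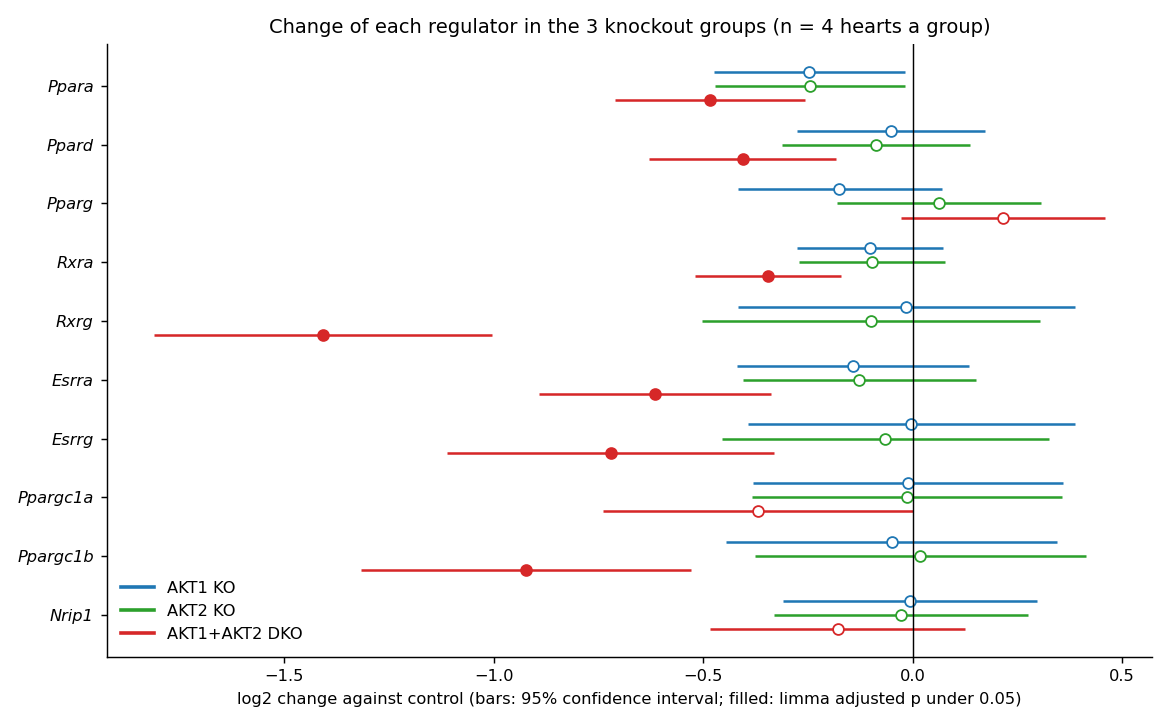
Points give the log2 change of each regulator against control in each of the 3 knockout groups (n = 4 a group), bars the 95% confidence interval of the limma fit, and filled points an adjusted p under 0.05. The 7 filled points are all DKO changes, from −0.35 for Rxra to −1.41 for Rxrg. With arrays scaled to cardiomyocyte markers those of Ppara, Ppard and Rxra turn positive, and only that of Rxrg stays called lower.

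Among the PPARs, Ppara, the fatty acid receptor that dominates in heart muscle, had an unadjusted p under 0.05 in both single knockouts, though no adjusted call. Its level was 3.61, 3.51, 3.43 and 3.62 in the 4 control hearts and 3.14, 2.92, 2.83 and 3.35 in the 4 DKO hearts. AKT1 KO hearts read 3.21, 3.51, 3.29 and 3.17, and AKT2 KO hearts 3.34, 3.26, 3.30 and 3.28. All DKO and all AKT2 KO hearts lay below every control, whereas 1 AKT1 KO heart reached the control range. The change was −0.25 ± 0.11 (SE) in AKT1 KO (adjusted p = 0.6, limma) and −0.25 ± 0.11 in AKT2 KO (adjusted p = 1), neither past the threshold, and −0.48 ± 0.11 in DKO, a 1.4-fold lower level (adjusted p = 0.00192). The order of group means was control, then AKT2 KO and AKT1 KO at 3.30 each, then DKO at 3.06, and the steps from each single knockout to DKO did not pass the test (adjusted p = 0.0803 and 0.086). Its second probe gave −0.42 in DKO (adjusted p = 0.0193). That probe gave −0.33 in AKT1 KO and −0.32 in AKT2 KO, neither called, and steps to DKO of −0.09 and −0.10.

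Ppard, the receptor found in most tissues, was level across the first 3 groups and low in DKO. Controls lay between 1.63 and 1.71, AKT1 KO hearts between 1.30 and 1.92, AKT2 KO hearts between 1.48 and 1.75, and DKO hearts at most 1.30. DKO hearts were all below the control and AKT2 KO hearts and met the lowest AKT1 KO heart. The DKO change was −0.41 ± 0.10 against control, 1.33-fold lower (adjusted p = 0.0056), and −0.36 against AKT1 KO (adjusted p = 0.0123), with control, AKT1 KO and AKT2 KO not told apart. Without DKO replicate 3 the difference from control was −0.42.

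Pparg, the receptor that drives fat cell formation, went the other way. DKO hearts read 1.91, 1.85, 2.15 and 1.73, controls 1.82, 1.75, 1.64 and 1.57, AKT1 KO hearts 1.31, 1.36, 1.82 and 1.58, and AKT2 KO hearts 1.84, 1.76, 1.73 and 1.70. Every group overlapped its neighbour in the order DKO, AKT2 KO, control, AKT1 KO. DKO hearts differed by 0.22 ± 0.11 from control (adjusted p = 0.137) and by 0.39 ± 0.11 from AKT1 KO, where the test was passed (adjusted p = 0.0116). The call against AKT1 KO was lost with only these groups in the fit (adjusted p = 0.0747) and within each slide (0.159 and 0.101) and with AKT1 KO replicate 1 and DKO replicate 3 both left out (0.0681). Without DKO replicate 3, the highest array, Pparg differed from control by 0.135 (adjusted p = 0.314). Fat cell markers did not move one way in DKO hearts: Cidec, Cfd and Car3 were higher, and Adig, Slc36a2 and Lep lower. Cidec and Car3 passed the filter on dim probes only through the DKO group, so the filter favoured their calls as higher. Cidec was well above background on no control array. Adipoq, which encodes the fat cell hormone adiponectin, was well above background on 1 of 4 DKO arrays and on no other array. The summed level of the fat cell markers was 4.14 to 4.55 in controls and 1.32 to 2.46 in DKO hearts, while their mean log2 change was 0.45. Slc36a2, an amino acid transporter, at 1.56 to 1.78 in controls and −2.50 to −0.87 in DKO hearts, made up most of the control sum. The part of fat cells in the Pparg values was not tested.

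Rxrg, the RXR of striated muscle, showed the largest change of the 10 regulators in DKO hearts. Its level was 4.62, 4.54, 4.47 and 4.51 in controls and 3.45, 3.33, 2.32 and 3.40 in DKO hearts. AKT1 KO hearts read 4.37, 4.68, 4.47 and 4.56, and AKT2 KO hearts 4.58, 4.41, 4.41 and 4.34. The highest DKO heart, at 3.45, lay below the lowest heart of any other group, at 4.34, and the other groups overlapped one another. The DKO change was −1.41 ± 0.19 against control, a 2.65-fold lower level (adjusted p = 3.64e-05), −1.39 against AKT1 KO (adjusted p = 4e-05) and −1.31 against AKT2 KO (adjusted p = 8.35e-05). In the single knockouts the changes were −0.02 ± 0.19 and −0.10 ± 0.19. Without DKO replicate 3, the lowest array, the DKO change was −1.14 (adjusted p = 1.39e-07), and within slide 1 and slide 2 it was −1.19 and −1.63, each called.

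Rxra, an RXR found in most tissues, fell by less. Controls lay between 5.19 and 5.34, AKT1 KO hearts between 4.93 and 5.23, AKT2 KO hearts between 5.04 and 5.27, and DKO hearts between 4.84 and 4.97. All DKO hearts were below all control and AKT2 KO hearts, and 1 AKT1 KO heart, replicate 1, lay among them. Relative to control, DKO hearts differed by −0.35 ± 0.08, 1.27-fold lower (adjusted p = 0.00316). A second, dim Rxra probe, above background on 15 of 16 arrays, gave −0.74 ± 0.25 (adjusted p = 0.0274).

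Esrra, the ERR that pairs with PGC-1 coactivators on respiratory chain genes, was low in DKO hearts. Controls read 5.43, 5.38, 5.38 and 5.42 and DKO hearts 4.98, 4.90, 4.28 and 4.99. AKT1 KO hearts read 5.05, 5.38, 5.30 and 5.31, and AKT2 KO hearts 5.29, 5.30, 5.29 and 5.22. All hearts of each knockout group lay below all controls, though AKT1 KO replicate 2 and the lowest control both round to 5.38, and the AKT1 KO and AKT2 KO changes did not pass the test (−0.14 ± 0.13, adjusted p = 0.958, and −0.13 ± 0.13, adjusted p = 1). The DKO change was −0.61 ± 0.13, 1.53-fold lower (adjusted p = 0.00145), and −0.45 without DKO replicate 3 (adjusted p = 0.00016). Against AKT1 KO and AKT2 KO the DKO level differed by −0.47 and −0.49, both called, and the 2 single knockouts were not told apart.

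Esrrg, an ERR enriched in oxidative muscle, was also lower in DKO hearts, with a wider spread among them than Esrra had. Its level was 1.71, 1.73, 1.6 and 1.61 in controls and 1.30, 1.16, 0.18 and 1.13 in DKO hearts. The range was 1.54 to 1.77 in AKT1 KO and 1.43 to 1.78 in AKT2 KO hearts. No DKO heart reached the range of another group, and DKO replicate 3 was far below the other 3. DKO and control hearts differed by −0.72 ± 0.18, 1.65-fold lower (adjusted p = 0.00505), and −0.47 without that array (adjusted p = 0.000461). The second Esrrg probe gave −0.78 (adjusted p = 0.0111).

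Of the PGC-1 coactivators, Ppargc1b changed and Ppargc1a did not pass the test. Ppargc1b read 2.70, 3.14, 2.84 and 3.36 in controls and 2.13, 2.31, 1.64 and 2.25 in DKO hearts. AKT1 KO hearts read 3.30, 3.16, 2.61 and 2.76, and AKT2 KO hearts 2.94, 2.89, 3.08 and 3.19. Controls spread more widely for Ppargc1b than for any other regulator (SD 0.299, n = 4), and all DKO hearts were still below every heart of the other groups, which overlapped. The DKO change was −0.92 ± 0.19, 1.9-fold lower (adjusted p = 0.000971), −0.78 without DKO replicate 3 (adjusted p = 0.00221), and −0.82 by the second probe (adjusted p = 0.00993). Within slides it was −0.69 and −1.15, both called.

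Ppargc1a, the coactivator that responds to fasting, cold and exercise, read 3.70, 3.81, 3.91 and 3.82 in controls and 3.69, 3.48, 2.79 and 3.80 in DKO hearts. Single knockout hearts lay between 3.6 and 3.98. DKO replicates 1 and 4 were within or at the edge of the control range and replicate 3 was far below it. In DKO hearts the change came to −0.37 ± 0.17 (95% interval −0.74 to 0.00, adjusted p = 0.0955). It was −0.15 without DKO replicate 3 (adjusted p = 0.261), and −0.49 and called without DKO replicate 4 (adjusted p = 0.0334), so whether the test was passed rested on single arrays. Its second probe gave −0.40 (adjusted p = 0.111).

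Nrip1, a corepressor of several of these receptors, read 0.19, 0.59, 0.55 and 0.71 in controls and 0.21, 0.32, 0.74 and 0.06 in DKO hearts. The single knockouts, between 0.37 and 0.77, overlapped both. The DKO change was −0.18 ± 0.14 (adjusted p = 0.322), and −0.32 without DKO replicate 3, where it was called (adjusted p = 0.0422). DKO replicate 3 was thus the highest DKO array for Nrip1 and Pparg and the lowest for 7 of the 10 regulators.

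The comparisons of DKO with each single knockout ask what loss of the second Akt gene added. Against AKT1 KO, 7 regulators were called, 6 lower and Pparg higher, where 47% of all genes were called and 20.3% were called lower. Against AKT2 KO, 6 were called, all lower, where 42.1% were called and 18.6% called lower. Ppara passed neither test, and Rxra, with −0.24 and −0.25, passed both at adjusted p = 0.0241. With only the compared groups in the fit, 3 regulators were called in each of these comparisons. Between AKT2 KO and AKT1 KO no regulator was called, where 0.896% of all genes were called. There 0 regulators had an unadjusted p under 0.05, beside 1008 of all 13725 genes.

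The departure from additivity, the DKO change minus the sum of both single knockout changes, was called for 2 regulators, Rxrg and Ppargc1b, where 26% of all genes were called. For Rxrg the single knockout changes summed to −0.12, the DKO change was −1.41, and the departure was −1.29 ± 0.27 (adjusted p = 0.00291). For Ppargc1b the sum was −0.03 and the departure −0.89 ± 0.26 (adjusted p = 0.0215). Its second probe departed by −0.80 and was not called (adjusted p = 0.0924). The Ppargc1b call was also lost within each slide (0.161 and 0.19) and without the filter on dim probes (0.0506). Ppara departed least by its brightest probe: its single changes summed to −0.49 beside a DKO change of −0.48. That departure was 0.01, with a 95% interval of −0.31 to 0.33. The second Ppara probe departed by 0.23 ± 0.18 (adjusted p = 0.402), so the near-equal sum rests on 1 probe. Esrrg departed by −0.65 (adjusted p = 0.077) and the departures of Esrra, Ppard, Pparg, Ppargc1a, Rxra and Nrip1 were between −0.35 and 0.33, none past the test. Without DKO replicate 3 the departure of Esrrg was −0.40 and called (adjusted p = 0.0162), that of Esrra was −0.18 and that of Ppargc1a −0.13. Quantile normalization, and also the authors' deposited values, called 5 regulators, with Esrra, Esrrg and Rxra added, and slide 2 alone called 0.

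**Figure D3:**
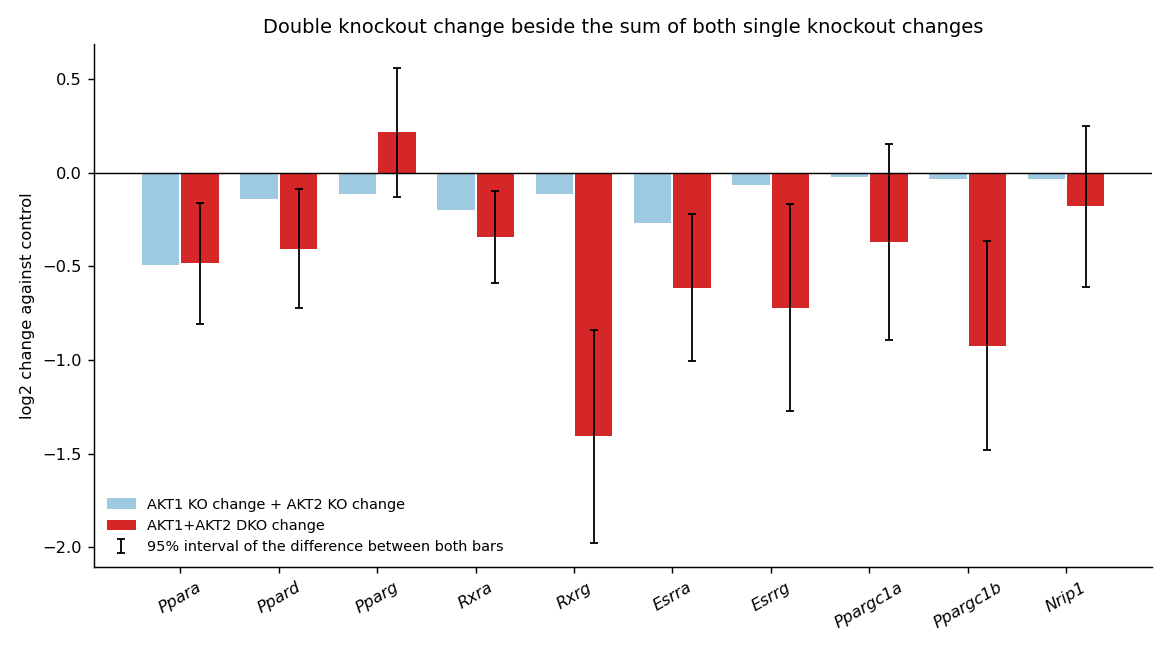
Bars give, on the log2 scale, the sum of the AKT1 KO and AKT2 KO changes (light) and the change in DKO hearts (dark) for each regulator; the whisker on the dark bar is the 95% interval of the difference between both bars. For Rxrg (−0.12 and −1.41), Ppargc1b (−0.03 and −0.92) and Esrrg (−0.07 and −0.72, not past the adjusted test) the light bar ends outside the whisker, and for Ppara (−0.49 and −0.48) both bars end together. Bars use each gene's brightest probe, and the second Ppara probe departed by 0.23.

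Cell type markers moved with the DKO group too. Against control, 45.6% of all genes were called and 21.2% were called lower. The 7 cardiomyocyte markers were all called lower in DKO hearts, with a median change of −0.49 and a summed level of 1980 to 2360 against 2670 to 3090 in controls (units of the array's 75th percentile). All 6 fibroblast markers were higher, with a sum of 253 to 280 against 162 to 174, and 3 of 6 macrophage markers were higher, with a sum of 26.3 to 36.3 against 22.3 to 25.3. Endothelial markers had 1 higher and 1 lower of 6, smooth muscle and pericyte markers 2 higher and 1 lower of 5, and of 3 atrial markers tested only Nppa was higher, by 2.49. No blood or mesothelial marker was called among 5 and 2 tested. In whole tissue, fewer cells of a type and less RNA per cell cannot be told apart, and the part of cell composition in the regulators' changes was not tested.

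When each array was scaled to the mean of the 7 cardiomyocyte markers, a setting chosen after these markers were seen to be lower, the median change of all genes moved from 0.02 to 0.58 and the share of called genes that were higher from 53.6 to 92.7%. Rxrg stayed lower on that scale, by −0.85 (adjusted p = 0.00053). Ppargc1b was at −0.36 (adjusted p = 0.127), Esrrg at −0.16 and Esrra at −0.05, none past the test. Ppara, Ppard and Rxra turned to 0.08, 0.16 and 0.22, of which Rxra was called higher (adjusted p = 0.0123), and Pparg was called higher at 0.78 (adjusted p = 5.03e-05). Ppargc1a and Nrip1 also turned positive, to 0.194 and 0.384, neither past the test.

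**Figure D4:**
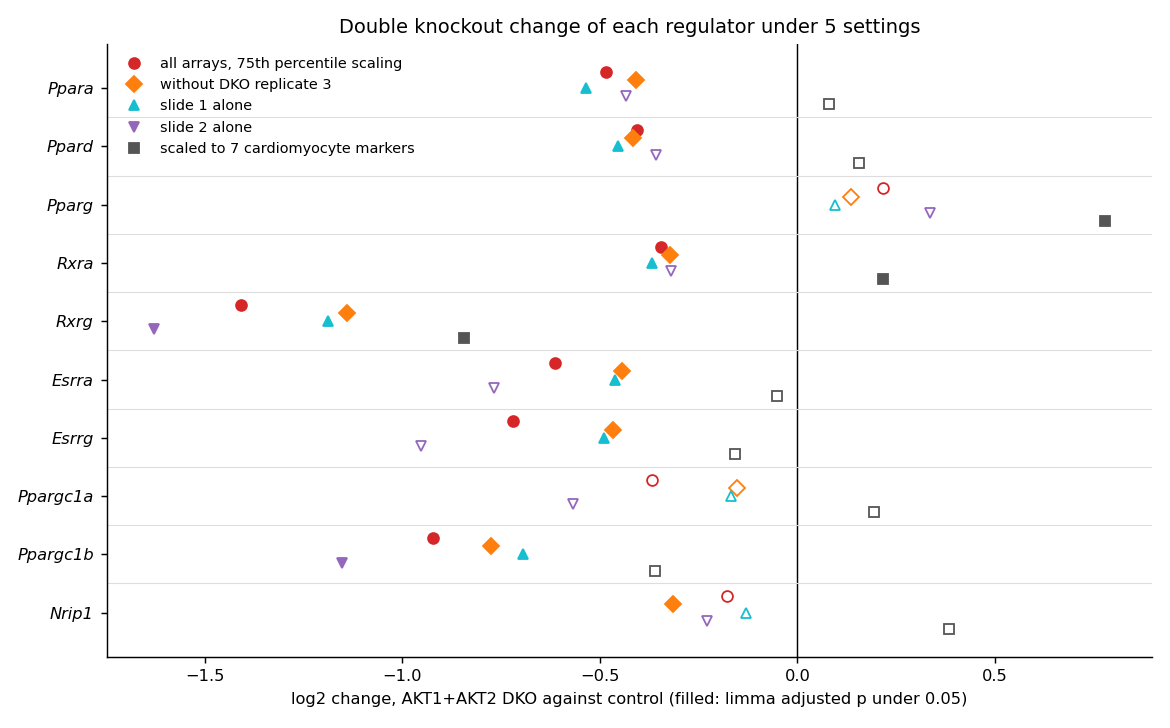
Points give the log2 change of each regulator in DKO against control hearts with all arrays, without DKO replicate 3, on slide 1 alone, on slide 2 alone and with arrays scaled to 7 cardiomyocyte markers; filled points passed an adjusted p of 0.05 in limma. Rxrg is filled and negative under all 5, from −0.85 to −1.63, whereas Ppara, Ppard, Rxra, Ppargc1a and Nrip1 turn positive under the marker scaling.

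Genes whose change over the 16 arrays lay closest to a regulator's were found as the smallest mean absolute difference of log2 levels, each gene set to its own control mean, leaving out predicted genes. For Rxrg they were Chac2 (0.057), Qrsl1 (0.0811) and Pnck (0.0985), against a median of 0.469 over all genes. For Ppargc1b the closest were Tet1 (0.148), Smtn (0.151) and Slf1 (0.153). Esrra lay closest to Smim26, Ttc7 and Pnkd (0.0495 to 0.0518) and Esrrg to Arpc5l, Rpa3 and Uros (0.0673 to 0.071). For Ppard they were Naa10, Tomm22, a subunit of the mitochondrial import receptor, and Cox4i1, a subunit of cytochrome c oxidase (0.0415 to 0.053). For Rxra they were Mrpl2, B4gat1 and Lcmt1 (0.0419 to 0.046), and for Ppara Zfp768, Ss18l2 and Dnm1l (0.0565 to 0.0877).

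Most PPAR target genes fell in DKO hearts. Of 33 tested, 24 were called lower and none higher, with a median change of −0.81. Of all genes 21.2% were called lower in this comparison, and their median change was 0.02. Cpt2, the carnitine palmitoyltransferase of the inner mitochondrial membrane, went from 6.24 ± 0.13 (SD, n = 4) to 4.15 ± 0.27, 4.24-fold lower (adjusted p = 4.25e-08). Eci1, an isomerase for unsaturated fatty acids, fell by 1.44, Acadm, the medium-chain acyl-CoA dehydrogenase, by 1.28, and Acadvl, the very-long-chain one, by 1.14. Genes that did not pass, named after their values were seen, included Cd36, Lpl, Cpt1a, Plin2, Pdk4 and Angptl4, with changes between −0.39 for Pdk4 and 0.23 for Plin2. Pdk4 and Angptl4, commonly used as readouts of PPAR activity, had standard errors of 0.75 and 0.99, so their changes were poorly bounded here. In AKT1 KO and AKT2 KO hearts no gene of this list was called, where 0.794% and 0.131% of all genes were. The list's medians were −0.22 and −0.07 beside −0.03 and −0.02 for all genes.

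ERR and PGC-1 target genes of mitochondria were lower as well, with 36 of 40 called lower, 1 higher and a median of −0.62. Over all genes the share called lower was 21.2%. Ckmt2, the mitochondrial creatine kinase of muscle, fell from 8.46 ± 0.04 to 7.12 ± 0.16, 2.54-fold (adjusted p = 9.74e-08). Cox7a1, the muscle isoform of a cytochrome c oxidase subunit, fell by 1.37, Ndufs1 of complex I by 0.86 and Uqcrfs1, the Rieske protein of complex III, by 0.87. The 1 called higher was Nrf1, a transcription factor for respiratory genes (0.49, adjusted p = 0.000245), and Gabpb1, Mfn1 and Mfn2 did not pass. In AKT1 KO and AKT2 KO hearts 0 of 40 were called, beside 0.794% and 0.131% of all genes, with medians of −0.08 and −0.10. Scaled to cardiomyocyte markers, the PPAR list had 13 lower and 4 higher and the ERR list 10 lower and 7 higher, with medians of −0.24 and −0.05.

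Lists around the regulators showed no common direction in DKO hearts, where 45.6% of all genes were called against control. Of 24 coregulators and other family members 7 were lower and 3 higher: Lpin1, a phosphatidate phosphatase that also acts as a PGC-1 partner, fell by 0.95, the coactivator Ncoa1 by 0.42, while Tbl1x, part of a corepressor complex, and the deacetylase Sirt1 rose by 0.41 and 0.46. Rxrb, the third RXR, was at −0.03 (adjusted p = 0.866). Of 19 other nuclear receptors 3 were higher, Rora by 0.52, Nr2f2 by 0.43 and Rara by 0.33, and Nr3c2, the mineralocorticoid receptor, was lower by −0.62 (adjusted p = 0.017). For Nr3c2, DKO hearts (−3.13 to −1.94) overlapped controls (−2.06 to −1.65). Its call was lost under 5 of 33 alternatives, quantile normalization and the authors' values among them. Of 20 upstream regulators 5 were lower and 2 higher, with the kinase Mapk14 at −0.64, the calcineurin subunit Ppp3cb at −0.38, the transcription factor Mef2a at −0.34 and Hif1a at 0.45, all called. Under the cardiomyocyte marker scaling Ncoa1, Ppp3cb and Mef2a turned positive. Of 11 PPARG target genes of fat cells 3 were higher, among them Gpd1 (0.82) and Cebpa (0.69), and 2 lower, Acsl1 (−1.07) and Agpat2 (−0.67). The medians of these lists were between −0.09 and 0.09, beside 0.02 for all genes. No gene of them was called in AKT1 KO or AKT2 KO hearts, where 0.794% and 0.131% of all genes were.

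**Figure D5:**
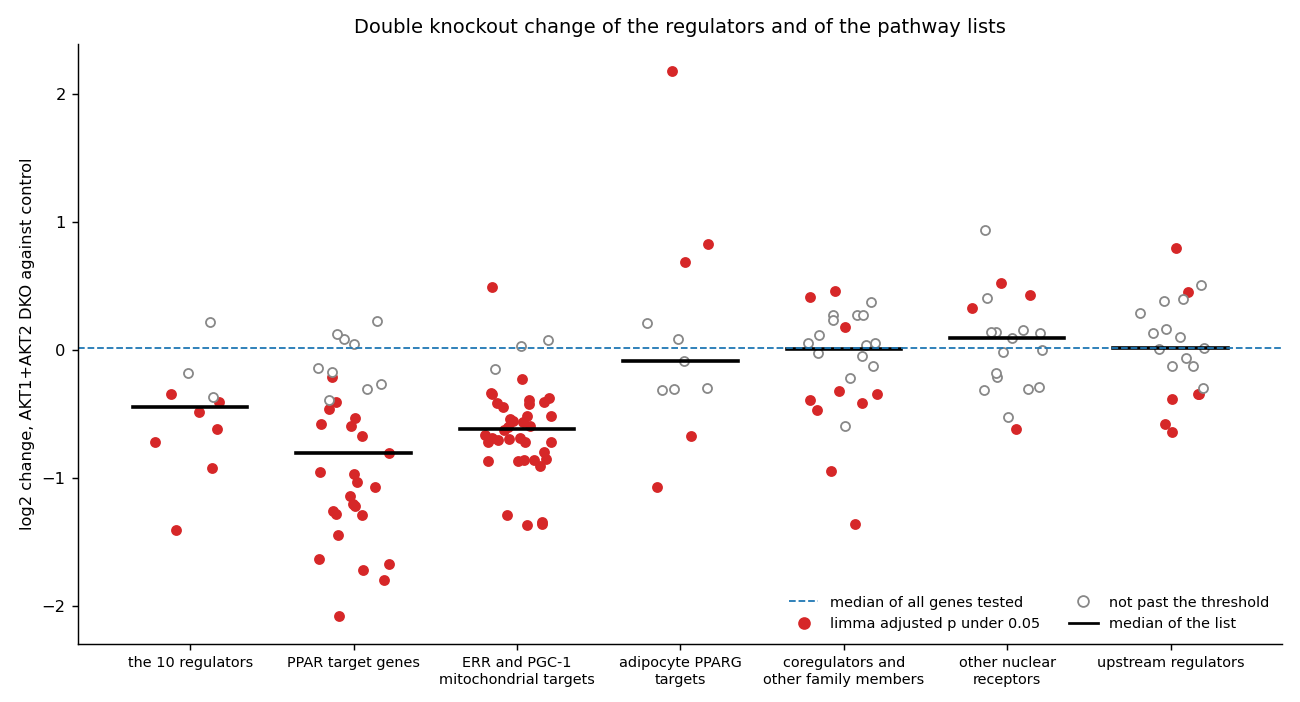
Points give the log2 change of each gene in DKO against control hearts for the 10 regulators and 6 pathway lists, red where limma's adjusted p was under 0.05, with a bar at each list's median and a dashed line at the median of all genes (0.02). The PPAR and ERR target lists have medians of −0.81 and −0.62 (−0.24 and −0.05 when arrays are scaled to cardiomyocyte markers), and the other 4 lists lie around the dashed line.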

How the data were processed

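Spot intensities were deposited by the authors as Agilent Feature Extraction 12.0.3.1 output, per the file headers, background-subtracted and not normalized between arrays. A table of the authors' log2 values was also deposited; set against the scanner files its values are log2, close to quantile-normalized signals (r 0.9838 to 0.9989) with each probe centred, and column medians lie between -0.0245 and 0.0134, with its method not given in the sources used here. Each array's log2 processed signal was set relative to its 75th percentile over non-control spots. Probes were kept if every heart of 1 group or more gave a signal well above background (the deposited flag), named through RefSeq accessions (58.3% of probes matched a symbol), and the brightest probe stood for a gene. limma 3.58.1 in R 4.3.3 fitted 1 mean per group over all 16 arrays (12 residual and 2.54 prior degrees of freedom), with Benjamini-Hochberg adjustment over 13725 genes; n = 4 mice a group limits the precision. The model was tested on simulated data. All 10 regulators, the 3 genes nearest to each called one and up to 4 called genes of each list, by smallest adjusted p, are named. Members and lists were chosen with earlier results of these data known, so they are no independent evidence. No effect of slide is confounded with group, since both slides hold 2 arrays of each group, but each group lies in 1 array column, which cannot be told apart from it. The alternatives were background correction, scaling, the deposited table, filters, probe choice, weights, prior, blocks, single slides and leaving out arrays. Not every gene of the lists is reported here by name.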

Additional observations from a re-analysis of the deposited data

Results flagged for a closer look

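Among 136 sets of 4 arrays checked (34 named genes in 4 groups), 9 held 1 array whose gap to the rest exceeded Dixon's 95% limit as a share of the whole range, which chance exceeds in about 1 in 20 sets. For the regulators these were DKO replicate 3 for Rxrg (2.32 against 3.33 to 3.45), Esrra (4.28 against 4.90 to 4.99) and Esrrg (0.18 against 1.13 to 1.30), and AKT1 KO replicate 1 for Rxra (4.93 against 5.21 to 5.23). Among list genes they were control replicate 3 for Acadm (7.38), AKT1 KO replicate 1 for Acadvl (7.27) and Agpat2 (3.90), AKT2 KO replicate 2 for Acsl1 (6.28) and AKT2 KO replicate 3 for Nr3c2 (−1.70).

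The effect of losing one Akt gene differed with the state of the other, by limma's test of the departure from additivity, for 21 of the 34 named genes, beside 26% of all genes. The list genes were named for a small adjusted p in a knockout comparison, so this share is no result about the lists. The departures of the regulators were −1.29 for Rxrg and −0.89 for Ppargc1b. PPAR target genes departed by −1.55 (Cpt2), −1.08 (Eci1), −0.95 (Acadm), −0.95 (Acsl1) and −0.58 (Acadvl), and mitochondrial genes by −1.26 (Ckmt2), −1.11 (Cox7a1), −0.78 (Ndufs1) and −0.64 (Uqcrfs1). Lower than additive were also Lpin1 (−0.68), Ncoa1 (−0.52), Mapk14 (−0.49) and Mef2a (−0.39). Higher than additive were Cebpa (0.71), Gpd1 (0.57), Rora (0.54), Tbl1x (0.52), Rara (0.45) and Sirt1 (0.43).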

How the results depend on the processing

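Of 33 alternatives, 2 were added after seeing the data (scaling to cardiomyocyte markers, and leaving AKT1 KO replicate 1 and DKO replicate 3 aside together). The count of 7 regulators called lower in DKO against control was kept in number under every alternative except slide 2 alone (2), the marker scaling (3, of which Rxrg was lower and Pparg and Rxra higher) and those that left out DKO replicate 3 (8) or 4 (8), and Rxrg was called lower under all 33. Against AKT1 KO and AKT2 KO the counts of 7 and 6 became 3 and 3 with only the compared groups, and 2 and 2 on slide 2. Under the marker scaling they became 4 and 4, in each comparison 3 higher and 1 lower. The count of 2 departures from additivity became 5 with quantile normalization, the authors' values, array weights or both arrays aside, 1 without the filter or on slide 1, 0 on slide 2 and 4 with the marker scaling, where Ppara, Pparg and Rxra were higher, Rxrg lower and Ppargc1b lost its call. Leaving out 1 array at a time gave 7 to 8, 6 to 9, 4 to 8 and 2 to 3 for these 4 counts, and 0 to 0 for both single knockouts. The labels do not say what a shared replicate number marks. With group means taken out, arrays of different groups correlated at −0.35 to 0.392 (mean 0.125) with the same number. With different numbers they correlated at −0.374 to 0.315 (mean −0.0415). These ranges overlap, so they do not settle whether the numbers pair the hearts. In control, AKT2 KO and DKO the number follows the array's slide and row, so number and place cannot be told apart there. Arrays of different groups at the same slide and row correlated at a mean of 0.199, and at different ones at −0.066. By slide alone the means were 0.156 and −0.155. The fit with a replicate block called 7, 7, 6 and 2, as did the fits with a slide block and with a slide and row block.

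In DKO against control 45.6% of all genes were called. Called list genes in that comparison were 24 (PPAR), 37 (ERR), 5 (PPARG), 10 (coregulators), 4 (nuclear receptors) and 7 (upstream). They became 12, 20, 2, 2, 1 and 3 on slide 2. Under the marker scaling they became 17 (ERR, 7 higher), 17 (coregulators, 16 higher against 3 before), 14 (nuclear receptors, all higher) and 15 (upstream, all higher against 2 before). Nuclear receptors also became 9 with array weights, 8 on slide 1 and 7 with both arrays aside, and upstream regulators 4 with only the compared groups. Leaving out 1 array gave 22 to 29, 33 to 37, 5 to 7, 9 to 13, 4 to 7 and 5 to 9.

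Among named changes that passed the test, direction turned only under the marker scaling, which also turned some that had not; values near 0 that had not passed, such as Ppara's departure (−0.10 with quantile normalization), turned under other settings too. Turned values were, against control, AKT1 KO and AKT2 KO, Ppara to 0.079, 0.29 and 0.23, Ppard to 0.16, 0.17 and 0.14 and Rxra to 0.22, 0.29 and 0.22, with Rxra's departure at 0.28 and Esrra against AKT1 KO at 0.056. In the same comparisons Ppargc1a, which had not passed, turned to 0.194, 0.169 and 0.107, and Nrip1, likewise, to 0.384, 0.355 and 0.312. The departures of Ppard, Esrra, Ppargc1a and Nrip1, none past the test before, turned to 0.16, 0.082, 0.082 and 0.283. Ncoa1, Ppp3cb and Mef2a turned to 0.15, 0.18 and 0.22. That scaling raises all values by the markers' own fall; slide 2 has 2 arrays a group. The causes of the other changes were not tested. Of the regulators' probes only the second Rxra probe was near background, with a control mean of −2.37. Other named genes lay lower in controls, among them Cebpa (mean −2.57) and the fat cell markers Cfd (−3.38) and Cidec (−5.23).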
